A study of Mus musculus with 40 samples.

Results

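Proteasome and immunoproteasome transcripts were followed in RNA-seq of mouse hippocampus after neuronal loss of the histone variant H2A.Z. Members were the genes whose symbol starts with Psma, Psmb, Psmc, Psmd or Psme followed by a number, without pseudogenes and antisense transcripts, and with 20 or more counts summed over the mice. The rule found 44 genes among the 28449 that passed this minimum, of 40853 in the count table. They comprised 31 constitutive subunits, 5 inducible immunoproteasome genes (Psmb8, Psmb9, Psmb10, Psme1 and Psme2), 3 assembly chaperones (Psmd5, Psmd9 and Psmd10), 2 other activators (Psme3 and Psme4) and 3 tissue-specific subunits or copies (Psma8, Psmb11 and Psme2b).

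The study asked what H2A.Z and its acetylation do in the hippocampus of adult mice of both sexes. There were 40 mice, 1 library each. Control mice (Myc, 3 females and 4 males) received a viral vector for the Myc tag and GFP with no Cre. The labels give the genotype of these controls as WT, while the study's methods describe mice floxed for both H2A.Z genes. H2A.Z KO mice (labelled H2A.Z.1/H2A.Z.2 KD, 4 females and 4 males) received the same vector together with Cre under the synapsin promoter, which is active in neurons. The replacement mice received Cre with Myc-tagged H2A.Z.1 from the CMV promoter, which is not restricted to neurons. The replacement form was wild-type (H2A.Z.1 WT, 4 females and 5 males), acetyl-defective with lysines changed to alanine (H2A.Z.1 KA, 4 and 4), or acetyl-mimic with the same lysines changed to glutamine (H2A.Z.1 KQ, 3 and 5). All groups shared surgery and injected volume, and viral titers were matched. In Myc mice PBS took the place of the Cre vector. Myc was thus the 1 group without Cre and the 1 group with a single vector. Effects of Cre itself, of the added vector and of the loss of H2A.Z cannot be told apart against Myc.

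The proteasome degrades proteins tagged with ubiquitin. Its barrel-shaped core has rings of alpha and beta subunits, and of the beta subunits Psmb5, Psmb6 and Psmb7 carry the cutting sites, while a regulatory particle of ATPases and other subunits recognises, unfolds and feeds in the substrate. Interferon-gamma induces Psmb8, Psmb9 and Psmb10, which replace Psmb5, Psmb6 and Psmb7 in newly built cores to give the immunoproteasome, and Psme1 and Psme2, which form a ring-shaped activator at the end of the core. The immunoproteasome favours peptides that fit MHC class I, is abundant in immune cells, and in healthy brain is low.

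In hippocampal tissue of H2A.Z KO mice all 5 inducible genes rose over Myc in females and in males, from 2.17-fold (Psmb10, females) to 30.0-fold (Psmb9, males). Of the 31 constitutive subunits, 2 fell and none rose in females, and 1 rose and 1 fell in males, and the catalytic subunit Psmb5 was among those that fell in both sexes. Of all genes tested, 18.1% rose and 16.5% fell in females, and 17.2% and 14.4% in males, by the same threshold. The Psmb5 call was lost in each sex when some single mice were left out. With each replacement form the 5 inducible genes were lower than in H2A.Z KO, as were 7.63 to 12.7% of all genes. Psmb8 and Psmb9 were still higher than in Myc, as were 3.48 to 5.87% of all genes. The acetyl-defective and acetyl-mimic forms gave no called difference in any of the 44 genes, where 0% of all genes were called. In bulk tissue fewer cells of a type and less RNA per cell cannot be told apart.

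Each library held between 24342921 and 45982772 counts (median 36417112). Replicates were separate mice, and counting error alone did not account for the spread within any group. Chi-square divided by its degrees of freedom was 8.16 to 286 over pairs of mice, the highest in pairs that held female Myc mouse 32. Levels are given in CPM, counts scaled to library size, and are not corrected for transcript length, so that they compare mice and not genes. Fold changes are edgeR log2 values ± an SE derived from the F statistic of its quasi-likelihood test over all 28449 genes. A gene was called when its Benjamini-Hochberg adjusted p was under 0.05. H2az1, the gene of H2A.Z.1, differed between H2A.Z KO and Myc by -0.06 ± 0.17 in females (edgeR adjusted p = 0.828) and -0.05 ± 0.16 in males (adjusted p = 0.841). H2az2, the gene of H2A.Z.2, differed by 0.28 ± 0.12 (adjusted p = 0.0609) and 0.14 ± 0.11 (adjusted p = 0.35). Gene-level counts of whole tissue therefore did not show the deletion, and groups are named by their labels. The study itself reported H2A.Z.1 mRNA to be lower with Cre and no replacement, and H2A.Z.2 mRNA to be lower with Cre in all groups. It called the drop small and held low sensitivity for a neuronal knockout in bulk tissue to be the likely reason. In cultured hippocampal neurons it reported a robust loss of H2A.Z with Cre. All 10 neuron markers and all 14 microglia markers were above 1 CPM on average in each of the 10 groups.

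The inducible genes lie in 3 places on GRCm39. Psmb9 (chr17:34400960-34406738, minus strand) and Psmb8 (chr17:34416690-34420428, plus strand) lie in the MHC region beside the peptide transporter genes Tap1 and Tap2. Psme1 (chr14:55815190-55822034, plus strand) and Psme2 (chr14:55824895-55829173, minus strand) are neighbours with 2860 bases between them, and Psmb10 lies alone (chr8:106662362-106665077, minus strand). Psmb9 and Tap1 are read in opposite directions from starts 363 bases apart, and their annotated exons overlap. Exons of Psme1, Psme2 and Psmb8 also overlap a gene on the other strand (Emc9, Rnf31 and Gm20496). Whether reads were counted by strand is not stated, so reads from such stretches cannot be told apart.

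Promoter windows of RefSeq, 300 bases that begin 250 bases before each RefSeq start, were matched by symbol for 27025 genes (32851 windows) and searched on both strands for 3 short patterns. These were the interferon-stimulated response element (ISRE, GAAA, any 2 bases, GAAA), the gamma-activated site bound by STAT proteins (GAS, TTCNNNGAA) and the antioxidant response element bound by Nfe2l2 (ARE, TGACNNNGC). The stretches below are shown because Psmb8 and Psme1 are the inducible genes with a match and Psmb5 is the constitutive subunit called lower in both sexes, with the pattern in capitals and 10 bases before it.
Psmb8, GAS, chr17:34417062-34417091, plus strand: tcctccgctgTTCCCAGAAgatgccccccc
Psme1, ISRE on its reverse strand, chr14:55815950-55815979, plus strand: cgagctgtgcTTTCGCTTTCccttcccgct
Psmb5, ARE, chr14:54855480-54855509, minus strand: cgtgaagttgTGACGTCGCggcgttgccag
The first base of the pattern was at position -97 from the RefSeq start in Psmb8, 10 in Psme1 and -47 in Psmb5. Among the 6 windows of the 5 inducible genes, 1 held an ISRE, 1 a GAS and 0 an ARE, and no window of Psmb9, Psmb10 or Psme2 held any of the 3 patterns. Among the 27 windows of the 25 constitutive subunits that matched, 2 held an ISRE, 1 a GAS and 4 an ARE. Over all 32851 windows the shares were 3.44% for ISRE, 8.3% for GAS and 12.4% for ARE. A match describes letters in the window and not a bound site.

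Psmb8 encodes the inducible subunit that replaces Psmb5. It stood at 7.8, 3.76 and 3.49 CPM in the 3 female Myc mice and at 59.7, 61.8, 44.2 and 115 CPM in the 4 female H2A.Z KO mice. In males it stood at 3.19, 5.08, 2.9 and 5.07 CPM in Myc and at 85.1, 101, 174 and 74.3 CPM in H2A.Z KO. No H2A.Z KO mouse came near a Myc mouse of its sex, and 1 mouse stood above the other H2A.Z KO mice in each sex. The difference was 3.77 ± 0.49 in females (13.7-fold, edgeR adjusted p = 5.49e-07) and 4.74 ± 0.45 in males (26.8-fold, adjusted p = 1.21e-09).

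Psmb9 encodes the inducible subunit that replaces Psmb6. Its levels were 3.82, 1.34 and 1.11 CPM in female Myc and 29.9, 26.7, 21.7 and 58.3 CPM in female H2A.Z KO mice. In males they were 0.88, 1.78, 1.88 and 2 CPM in Myc and 39.8, 47.5, 84.1 and 24 CPM in H2A.Z KO mice. The groups did not overlap in either sex, and the mouse with the highest Psmb8 was also the one with the highest Psmb9. Psmb9 was higher by 3.96 ± 0.57 in females (15.6-fold, edgeR adjusted p = 2.94e-06) and by 4.91 ± 0.53 in males (30.0-fold, adjusted p = 1.18e-08). Tap1, named because its exons overlap those of Psmb9, was higher by 3.75 ± 0.51 in females (adjusted p = 1.36e-06) and 4.72 ± 0.47 in males (adjusted p = 3.42e-09).

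Psmb10, which replaces Psmb7, was already at 13.2 CPM or more in every Myc mouse. Female levels were 17.9, 20.2 and 13.6 CPM in Myc and 31.1, 33.8, 27.3 and 57.6 CPM in H2A.Z KO. Male levels were 13.2, 18.4, 15 and 14.4 CPM in Myc and 41, 51.3, 74.3 and 26.9 CPM in H2A.Z KO. The groups again did not overlap. The difference was 1.12 ± 0.26 in females (2.17-fold, edgeR adjusted p = 0.000846) and 1.67 ± 0.23 in males (3.18-fold, adjusted p = 9.66e-07).

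Psme1 encodes the alpha subunit of the inducible activator. It stood at 37.6, 43.9 and 29.8 CPM in female Myc and 82.3, 84.3, 61.7 and 122 CPM in female H2A.Z KO mice. In males it stood at 29.2, 35.8, 29.4 and 29.7 CPM in Myc and 98.5, 122, 173 and 77.7 CPM in H2A.Z KO mice. Every H2A.Z KO mouse lay above every Myc mouse of its sex. Psme1 rose by 1.24 ± 0.24 in females (2.36-fold, edgeR adjusted p = 0.000158) and 1.93 ± 0.22 in males (3.81-fold, adjusted p = 3.38e-08).

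Psme2 encodes the beta subunit of that activator. Its counts were low, with 2.75, 2.1 and 2.43 CPM in female Myc and 5.47, 4.24, 5.24 and 6.89 CPM in female H2A.Z KO mice. Male levels were 2.36, 3.36, 2.4 and 1.93 CPM in Myc and 5.73, 8.78, 11.4 and 4.93 CPM in H2A.Z KO. The groups did not overlap, and Psme2 rose by 1.16 ± 0.24 in females (2.24-fold, edgeR adjusted p = 0.000176) and 1.62 ± 0.21 in males (3.08-fold, adjusted p = 1.49e-07).

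**Figure D1:**
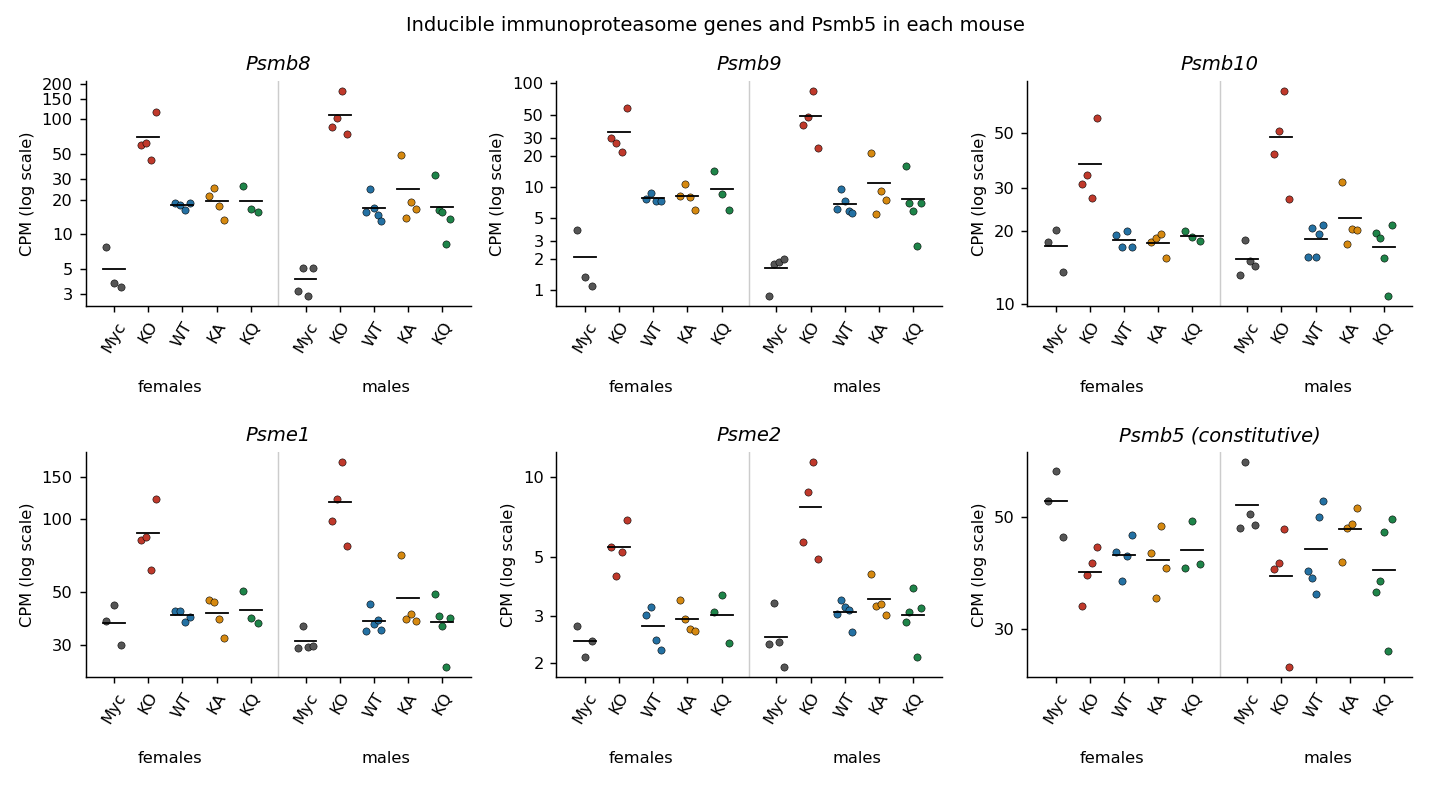
Level in CPM (log scale) of the 5 inducible genes and of Psmb5 in each mouse by group, females left and males right of the line in each panel, with bars at group means. For each of the 5 inducible genes every H2A.Z KO mouse (red) lies above every Myc mouse (grey) of its sex, while Psmb5 lies lower in H2A.Z KO than in Myc.

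Psme2 cannot be read alone, because Psme2b (chr11:48836181-48837017, minus strand) is a near-identical copy. Their coding sequences agreed at 99.3% of 670 aligned bases, with 5 mismatches. A stretch of each coding strand with 3 of these differences in capitals, from GRCm39 and its GENCODE annotation, shows how few bases assign a read to one gene or the other.
Psme2, coding bases 460 to 519: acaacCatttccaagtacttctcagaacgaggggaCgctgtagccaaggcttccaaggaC
Psme2b, coding bases 484 to 543: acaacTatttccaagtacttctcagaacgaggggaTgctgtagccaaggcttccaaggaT
Psme2b stood at 15.2, 17.2 and 10.9 CPM in female Myc and at 37.6, 36.8, 25.8 and 56.4 CPM in female H2A.Z KO mice. It stood at 11.3, 16.6, 12.6 and 12.4 CPM in male Myc and at 45.7, 55.2, 73.4 and 25.9 CPM in male H2A.Z KO mice. Neither pair of groups overlapped, and Psme2b was higher by 1.44 ± 0.28 in females (edgeR adjusted p = 0.000125) and 1.92 ± 0.25 in males (adjusted p = 3.07e-07). Psme2 took 10.3 to 18.4% (median 13.95%) of the counts of both genes over the 40 mice. The sum of both was 17.9, 19.3 and 13.3 CPM in female Myc and 43.1, 41.0, 31.0 and 63.3 CPM in female H2A.Z KO, and 13.7, 20.0, 15.0 and 14.3 CPM in male Myc and 51.4, 64.0, 84.8 and 30.8 CPM in male H2A.Z KO. The groups thus did not overlap however reads were split between Psme2 and Psme2b. Exons of Psme2b also overlap 9930111J21Rik1 on the same strand, and coding copies of Psme2 lie in Gm12185 as well as Psme2b. The sum does not tell reads of these other genes apart.

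All 5 inducible genes were called higher in H2A.Z KO in each sex, where 18.1% of all genes tested were called higher in females and 17.2% in males. Their median log2 fold change was 1.24 in females and 1.93 in males, where the median over all genes was 0.00305 and 0.0269. The groups did not overlap for 5 of 5, where every H2A.Z KO mouse was higher for 18.8% of all genes in females and 15% in males. The 31 constitutive subunits had a median of -0.107 in females, with 27 of 31 below 0, and -0.0167 in males, with 18 of 31 below 0. Of the 31, 2 were called lower in females and 1 in males, where 16.5% and 14.4% of all genes were called lower. None was called higher in females (7 had an unadjusted p under 0.05 in either direction, and DESeq2 called 2 in all), and 1 was in males. Of all 28449 genes, 6316 were higher and 5947 lower at such a p in females by edgeR.

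The summed level of the 5 inducible genes was 63.8 ± 11.7 CPM (SD, n = 3) in female Myc and 235 ± 86.1 (n = 4) in female H2A.Z KO, and 54.5 ± 6.86 (n = 4) and 331 ± 134 (n = 4) in males. The summed level of the 31 constitutive subunits was 2990 ± 286 CPM for females with Myc and 2760 ± 207 CPM for females with H2A.Z KO, and 2910 ± 241 and 2820 ± 222 CPM for the males. The ranges of the constitutive sums overlapped between H2A.Z KO and Myc mice of a sex, and those of the inducible sums did not. The inducible genes also varied more between mice of a group, with a median coefficient of variation of 36.6% in female and 41.3% in male H2A.Z KO mice, where that of the constitutive subunits was 8.01% and 11.2%.

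**Figure D2:**
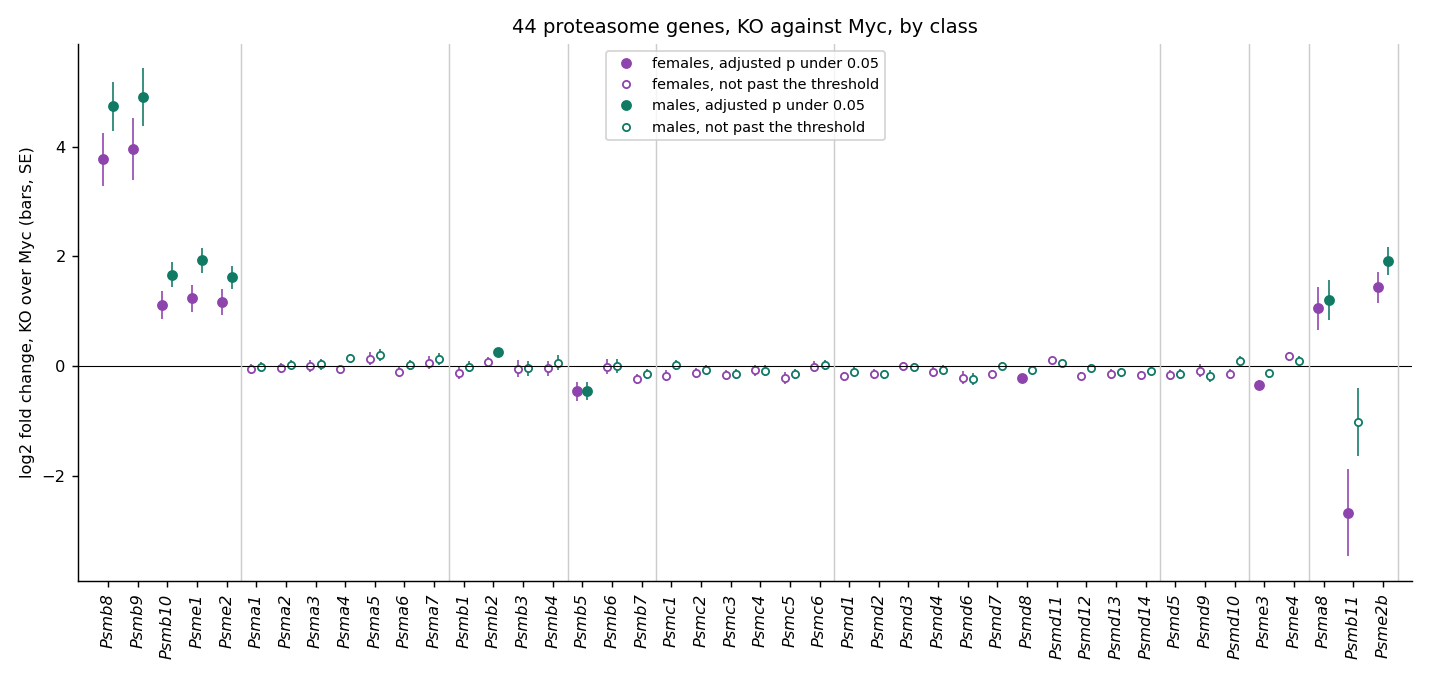
Difference on the log2 scale between H2A.Z KO and Myc, with its SE, for the 44 members by class, in females and males, filled where the adjusted p was under 0.05 and open where it was not. The 5 inducible genes and Psme2b stand between 1.12 and 4.91, and the 31 constitutive subunits between -0.46 and 0.25.

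In the core particle, none of the 7 alpha subunits (Psma1 to Psma7), which form the outer rings and the gate, was called in either sex (edgeR, with 0 at an unadjusted p under 0.05). Their log2 fold changes ran from -0.1 to 0.132 in females and from -0.00836 to 0.2 in males. Of the 4 structural beta subunits Psmb1 to Psmb4, Psmb2 rose in males. It stood at 50.7, 54.7, 53.1 and 50.8 CPM in male Myc and at 58.2, 63.2, 71 and 56.8 CPM in male H2A.Z KO mice, without overlap, a difference of 0.25 ± 0.08 (edgeR adjusted p = 0.0103). The call was lost without H2A.Z KO mouse 21. In females the difference of Psmb2 was 0.08 ± 0.08 (adjusted p = 0.489).

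Of the 3 catalytic subunits, Psmb5, which carries the chymotrypsin-like site, fell in both sexes. Its levels were 53.8, 61.8 and 45.7 CPM in female Myc and 33.3, 38.4, 40.5 and 43.7 CPM in female H2A.Z KO mice. In males they were 47.6, 64.2, 50.8 and 48.3 CPM in Myc and 39.4, 40.6, 47.3 and 25.2 CPM in H2A.Z KO mice. Every H2A.Z KO mouse lay below every Myc mouse of its sex, in males by a narrow margin, as for 16.4% of all genes in females and 13.2% in males. The difference was -0.46 ± 0.18 in females (edgeR adjusted p = 0.0376) and -0.46 ± 0.16 in males (adjusted p = 0.0277). The whole coding sequence of Psmb5 also matched Gm3375 at 98% identity or more, so reads could have been divided between them, and the call rests on single mice. In females neither Psmb5 nor Psmd8 was called without Myc mouse 11, and no constitutive subunit was called lower without H2A.Z KO mouse 13, H2A.Z KO mouse 14 or Myc mouse 31, or without the 4 mice above 1000 CPM of the choroid plexus gene Ttr, and Psmb5 was not called in males without Myc mouse 22 or H2A.Z KO mouse 42.

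Psmb6, which carries the caspase-like site, stood at 86.7, 98.9 and 69.4 CPM in female Myc and 83.3, 88.9, 83.2 and 81.1 CPM in female H2A.Z KO mice. In males it stood at 71.4, 99, 80.6 and 77 CPM in Myc and 90.6, 88.7, 90.4 and 58.9 CPM in H2A.Z KO mice. The groups overlapped, with differences of -0.02 ± 0.14 (edgeR adjusted p = 0.948) and 0.0046 ± 0.13 (adjusted p = 0.99). Psmb7, which carries the trypsin-like site, differed by -0.23 ± 0.10 in females (adjusted p = 0.0536) and -0.14 ± 0.09 in males (adjusted p = 0.237), also with overlap.

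To compare partners within a mouse, the inducible subunit's share of each pair was computed after division by transcript length (from 1 GENCODE transcript per gene). This share is of transcripts and says nothing of assembled particles. Psmb8 made up 8.49% ± 3.67 (SD, n = 3) of Psmb8 and Psmb5 in female Myc and 62.6% ± 8.31 (n = 4) in female H2A.Z KO mice, and 7.13% ± 1.76 (n = 4) and 73.3% ± 4.43 (n = 4) in males. Psmb9 made up 1.83% ± 1.24 and 23.1% ± 8.5 of its pair with Psmb6 in females, and 1.5% ± 0.45 and 29.9% ± 8.13 in males. Psmb10 made up 12.4% ± 1.23 and 26.3% ± 5.64 of its pair with Psmb7 in females, and 11.4% ± 0.42 and 30.1% ± 6.52 in males. In each H2A.Z KO mouse Psmb8 was above Psmb5 per length (52.2 to 78.6%), while Psmb9 and Psmb10 stayed below their partners (16.6 to 41.6% and 20.4 to 38.1%). Reads of Psmb5 may have been divided with its copy Gm3375, and Psmb8 has no such copy. The Psmb8 share may thus be too high in every group.

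**Figure D3:**
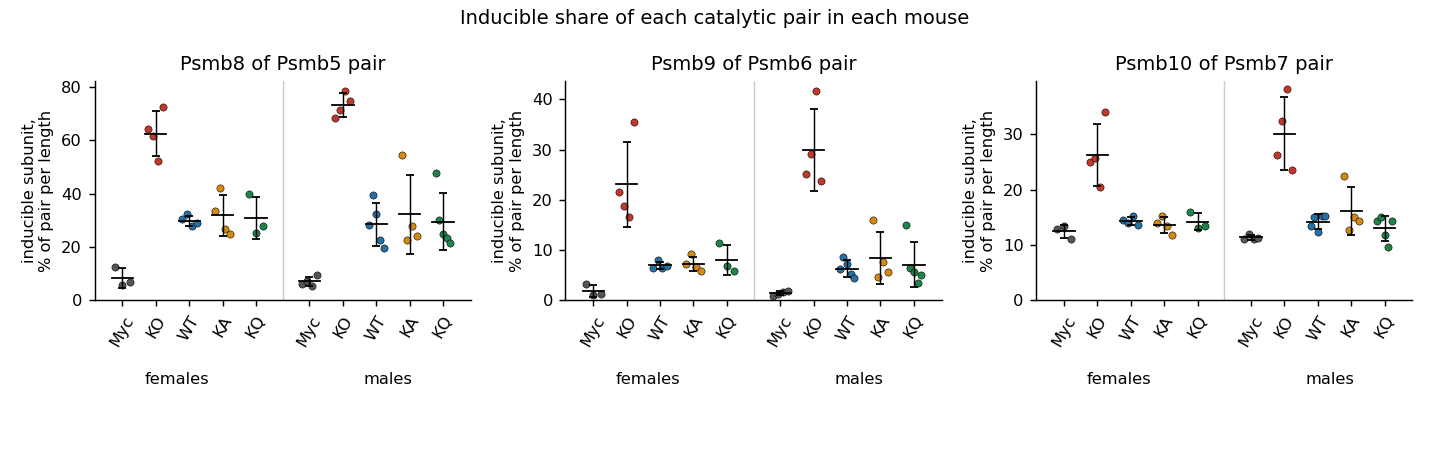
Percent of each catalytic pair that was the inducible subunit, per transcript length, in each mouse by group, with bars at the mean and SD. In H2A.Z KO mice Psmb8 takes 52.2 to 78.6% of its pair, and in Myc mice 5.41 to 12.7%.

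In the regulatory particle, none of the 6 ATPases Psmc1 to Psmc6, the motor that unfolds substrates, was called in either sex (edgeR, with 1 at an unadjusted p under 0.05 in females and 0 in males). Their log2 fold changes ran from -0.217 to -0.00951 in females and from -0.147 to 0.0188 in males. Of the 11 other subunits Psmd8, a lid subunit, fell in females, from 90.3, 99.7 and 85.7 CPM in Myc to 71.4, 77.5, 78.8 and 88.8 CPM in H2A.Z KO, with 1 mouse overlapping. The difference was -0.22 ± 0.08 (edgeR adjusted p = 0.0295), and in males it was -0.07 ± 0.07 (adjusted p = 0.51). Psmd12, also of the lid, was at -0.18 ± 0.07 in females (adjusted p = 0.0516), and Psmd6 was at -0.24 ± 0.11 in males (adjusted p = 0.0823).

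The chaperones Psmd5, Psmd9 and Psmd10, which assemble the base of the regulatory particle, were not called in either sex (edgeR, with 0 at an unadjusted p under 0.05). Their differences were -0.16 ± 0.09, -0.08 ± 0.12 and -0.14 ± 0.10 in females and -0.14 ± 0.08, -0.18 ± 0.11 and 0.09 ± 0.09 in males. Psme3, a nuclear activator related to Psme1 and Psme2 but not induced by interferon, fell in females. It stood at 106, 108 and 102 CPM in Myc and at 78.1, 79.3, 86.6 and 88.8 CPM in H2A.Z KO mice, without overlap, a difference of -0.34 ± 0.09 (edgeR adjusted p = 0.00249). In males Psme3 stood at 102, 108, 102 and 101 CPM in Myc and 82.1, 86.2, 98.6 and 111 CPM in H2A.Z KO mice, with overlap (-0.13 ± 0.08, adjusted p = 0.25). Psme4, the single-chain nuclear activator, differed by 0.18 ± 0.09 (adjusted p = 0.122) and 0.10 ± 0.08 (adjusted p = 0.399).

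Of the tissue-specific members, Psma8, an alpha subunit of the testis, was near 1 CPM or under in most mice. It stood at 0.773, 0.593 and 0.383 CPM in female Myc and 1.8, 1.45, 0.74 and 0.953 CPM in female H2A.Z KO mice, and at 0.327, 0.254, 0.498 and 0.685 CPM in male Myc and 0.919, 0.981, 1.24 and 0.951 CPM in male H2A.Z KO mice. The groups overlapped in females and not in males, and Psma8 was called higher in both (1.06 ± 0.39, edgeR adjusted p = 0.0332, and 1.20 ± 0.36, adjusted p = 0.00971). The female call was lost without H2A.Z KO mouse 13 or 14 or Myc mouse 31 or 32 (adjusted p = 0.0773 to 0.15) and with only the groups compared (adjusted p = 0.0692). Psmb11, the beta subunit of thymic epithelium, had 10, 3 and 5 reads in female Myc and 0, 0, 3 and 1 in female H2A.Z KO mice, and was called lower (adjusted p = 0.00773, and 0.0618 with only the groups compared). It had 13, 3, 7 and 9 reads in male Myc and 4, 5, 5 and 1 in male H2A.Z KO mice (adjusted p = 0.225). At such counts the fitted fold change depends on the prior count, and no value is read from it.

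Each inducible gene rose more in males than in females on the log2 scale, but no difference between the sexes was called for any of the 44 members (edgeR and DESeq2 0 of 44, with 1 at an unadjusted p under 0.05 by either) or for any gene of the 28449 (0% called). The difference of the responses, females minus males, was -0.97 for Psmb8 (95% interval -2.13 to 0.18), -0.94 for Psmb9 (-2.32 to 0.43), -0.55 for Psmb10 (-1.21 to 0.11) and -0.46 for Psme2 (-1.07 to 0.15). Psme1 had the 1 unadjusted p under 0.05, with a difference of -0.69 ± 0.32 (edgeR adjusted p = 0.902), where 1569 of all 28449 genes had such a p. Between female and male Myc mice no member was called by either tool, where 0.0457% of all genes were called. At an unadjusted p under 0.05 there were 0 members, beside 1525 of all 28449 genes by edgeR. These intervals leave room for sizeable differences between the sexes.

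With wild-type H2A.Z.1 in place of the lost protein, female Psmb8 levels were 18.7, 17.8, 16.2 and 18.8 CPM, and male levels were 15.5, 24.9, 16.9, 14.6 and 13 CPM. With H2A.Z.1 KA they were 21.3, 25.4, 17.7 and 13.2 CPM for females, and 48.6, 13.9, 18.9 and 16.6 CPM for males. With H2A.Z.1 KQ they were 26.4, 16.5 and 15.7 CPM for females, and 32.4, 16.1, 15.7, 8.26 and 13.6 CPM for males. Every replacement mouse lay between the Myc and the H2A.Z KO mice of its sex, and male H2A.Z.1 KA mouse 5 was the highest of them. Against H2A.Z KO, the log2 difference of Psmb8 was -1.97 ± 0.39 (H2A.Z.1 WT), -1.86 ± 0.39 (KA) and -1.84 ± 0.43 (KQ) in females and -2.68 ± 0.37, -2.15 ± 0.39 and -2.67 ± 0.37 in males, with edgeR adjusted p of 3.81e-06 to 0.00498.

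Psmb9 with replacement stood at 7.64, 8.68, 7.39 and 7.26 CPM (H2A.Z.1 WT), 8.19, 10.7, 8.06 and 5.96 (KA) and 14.3, 8.55 and 6.03 (KQ) in females. In males it stood at 6.14, 9.54, 7.28, 5.84 and 5.56 CPM (WT), 21.1, 5.52, 9.18 and 7.52 (KA) and 15.8, 6.92, 5.9, 2.67 and 6.95 (KQ). These levels too lay between those of Myc and H2A.Z KO mice, without overlap. The log2 difference of Psmb9 from H2A.Z KO was -2.14 ± 0.45, -2.06 ± 0.45 and -1.83 ± 0.50 in females and -2.83 ± 0.43, -2.17 ± 0.45 and -2.69 ± 0.43 in males, in the same order of forms (edgeR adjusted p of 1.28e-05 to 0.0137).

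Psmb10, Psme1 and Psme2 with replacement ranged from 10.8 to 31.7, from 24.2 to 71 and from 2.11 to 4.34 CPM over the 25 replacement mice. They lay below every H2A.Z KO mouse of the same sex, except that Psmb10 of male H2A.Z.1 KA mouse 5 (31.7 CPM) was above 1 male H2A.Z KO mouse (26.9 CPM). Their log2 differences from H2A.Z KO were -0.85 to -1.13 in females and -1.11 to -1.66 in males, each called. In all, 5 of 5 inducible genes were called lower with each form, where 9.17% (H2A.Z.1 WT), 9.62% (KA) and 7.63% (KQ) of all genes were called lower in females and 12%, 9.94% and 12.7% in males. Groups did not overlap for 5 of 5 genes, and for 4 of 5 in male KA, where every mouse was lower for 9.44%, 8.77% and 9.87% of all genes in females and 10.1%, 9.7% and 9.14% in males. In females the 5 calls for H2A.Z.1 KQ became 0 when only those groups were fitted, and 2 and 3 without KQ mouse 37 or 38. In males the 5 calls for H2A.Z.1 KA became 4 when only those groups were fitted, as Psmb10 missed the threshold (adjusted p = 0.0605).

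Against Myc, Psmb8 remained higher by 1.80 ± 0.45 (H2A.Z.1 WT, 3.48-fold), 1.91 ± 0.46 (KA, 3.77-fold) and 1.93 ± 0.47 (KQ, 3.81-fold) in females, with edgeR adjusted p of 0.00893 to 0.0154. In males it was higher by 2.06 ± 0.40 (4.18-fold), 2.59 ± 0.42 (6.03-fold) and 2.08 ± 0.40 (4.22-fold), with adjusted p of 0.000119 to 0.00163. Psmb9 was higher by 1.82 ± 0.54, 1.91 ± 0.54 and 2.14 ± 0.56 in females (adjusted p of 0.0223 to 0.0313) and by 2.08 ± 0.48, 2.73 ± 0.50 and 2.22 ± 0.48 in males (adjusted p of 0.000474 to 0.00715). Every replacement mouse was above every Myc mouse of its sex for both genes, as was so for 12.2%, 10.4% and 13.5% of all genes in females and 7.1%, 9.04% and 5.37% in males.

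Psmb10, Psme1 and Psme2 were not called by edgeR against Myc with any form in either sex. DESeq2 called Psme1 for H2A.Z.1 KA in males (0.61, adjusted p = 0.0391), where every KA mouse stood above every Myc mouse. Their differences were 0.05 to 0.31 in females and 0.17 to 0.31 in males with H2A.Z.1 WT or KQ, and 0.56 ± 0.23, 0.59 ± 0.22 and 0.48 ± 0.21 in males with KA (edgeR adjusted p = 0.14, 0.0918 and 0.176). The 2 of 5 inducible genes called higher compared with 5.87% (WT), 4.42% (KA) and 3.59% (KQ) of all genes in females and 3.66%, 5.15% and 3.48% in males. In females these 2 calls fell to 0 without Myc mouse 31 or without Myc mouse 32 for each form, and for KQ also without KQ mouse 17. Without the mice above 1000 CPM of Ttr, which were spread over H2A.Z KO, WT and KQ females, 1 gene was called for WT and 0 for KQ. In males no single mouse changed a call. The comparisons with H2A.Z KO share its mice, and those with Myc share theirs, so that they are not independent of each other.

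**Figure D4:**
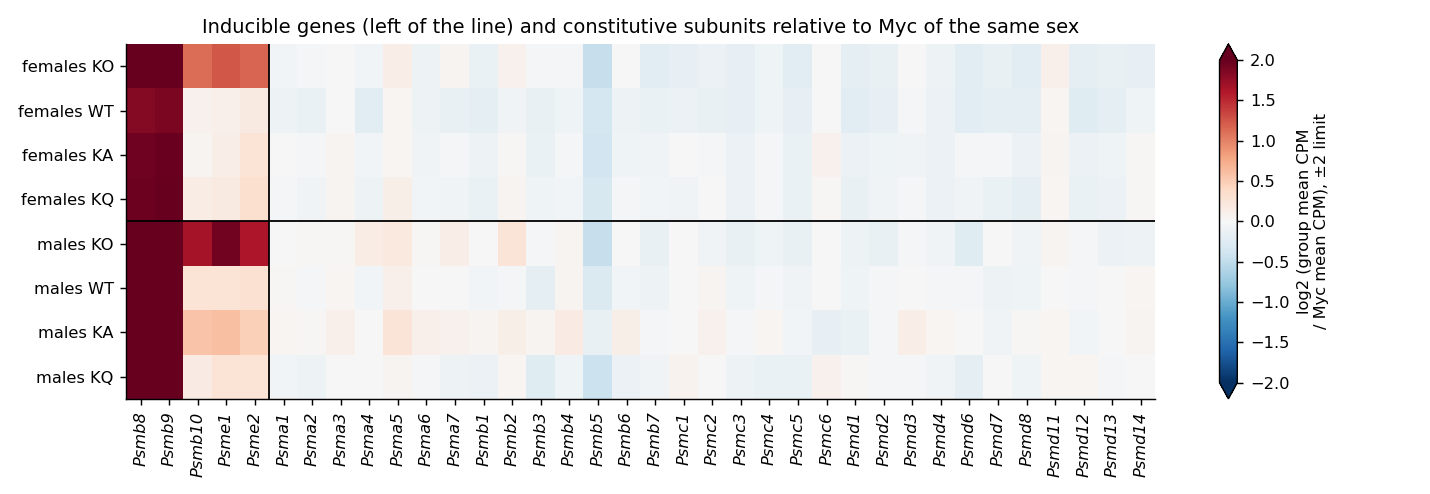
Log2 ratio of the group mean CPM to the Myc mean of the same sex for the 5 inducible genes and the 31 constitutive subunits (columns, parted by the line) in each other group (rows), with colours ending at -2 and 2. Psmb8 and Psmb9 pass the end of the scale in H2A.Z KO and stay near or past it with replacement, and the constitutive subunits stay near 0.

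Few constitutive subunits were called in the replacement comparisons. Against H2A.Z KO, 0 of 31 were called higher by edgeR with any form, where 5.36% (WT), 5.63% (KA) and 5.36% (KQ) of all genes were in females and 7.44%, 5.86% and 8.72% in males (DESeq2 called 1, with KA in females, and 1 to 3 per comparison had an unadjusted p under 0.05 in either direction). Against Myc, 1 was called lower with WT in females and 0 otherwise, also by DESeq2, where 3.52%, 3.23% and 2.08% of all genes were in females and 1.68%, 2.74% and 1.65% in males (0 to 6 at an unadjusted p under 0.05). In males Psmb2 fell from H2A.Z KO with H2A.Z.1 WT (-0.28, edgeR adjusted p = 0.00434) and with KQ (-0.21, adjusted p = 0.0369), and Psma4, an alpha subunit, with WT (-0.21, adjusted p = 0.0353). The chaperone Psmd10 was also lower with WT in males (-0.25, adjusted p = 0.0418). The Psmb2 call with KQ was lost without H2A.Z KO mouse 4 or 21 or KQ mouse 27, 28 or 45 (adjusted p of up to 0.219). The Psma4 call was lost without H2A.Z KO mouse 3 or 21 or WT mouse 9, 30 or 46, and that of Psmd10 without H2A.Z KO mouse 3, 4 or 21 or WT mouse 9, 29 or 30 (adjusted p of up to 0.155 and 0.138), and all 3 were lost when only those groups were fitted. In females Psmd12 was lower with WT than in Myc (-0.24, adjusted p = 0.0345). It stood at 72.7, 71, 75 and 79.2 CPM with WT and 83.8, 93.8 and 86.7 CPM in Myc, without overlap. Every WT mouse was likewise lower for 2 of the 31 constitutive subunits, Psmd12 and Psmd7, and for 9.37% of all genes. The Psmd12 call was lost without WT mouse 19, 20 or 39 or Myc mouse 31 or 32 (adjusted p of up to 0.178). Group means of the 31 constitutive subunits in the replacement groups were 0.744 to 1.2 of the Myc mean of the same sex. Psmb5 had the lowest ratio in 5 of the 6 groups, and its fitted log2 difference from Myc, -0.16 to -0.43 over all 6, was not called.

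The share of Psmb8 in its pair with Psmb5 was 29.9% ± 1.92 (H2A.Z.1 WT, n = 4), 31.9% ± 7.81 (KA, n = 4) and 31.0% ± 7.86 (KQ, n = 3) in females. In males it was 28.5% ± 7.98 (n = 5), 32.3% ± 14.9 (n = 4) and 29.6% ± 10.6 (n = 5). The shares of Psmb9 were 6.35 to 8.43% on average and those of Psmb10 13.0 to 16.1%.

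The acetyl-mimic and acetyl-defective forms were compared directly. No member of 44 was called by edgeR or DESeq2 in females, in males or over both sexes, where 0% of all genes were called. Of all 28449 genes, 595 had an unadjusted p under 0.05 by edgeR in females, 2993 in males and 1252 over both sexes. Of the 44 members there were 0 in females and over both sexes and 5 in males by either tool. These 5 were constitutive (Psmc6 and Psmd1 higher, and Psmb3, Psmb4 and Psmd3 lower with KQ), with adjusted p of 0.388 to 0.47. For Psmb8 the difference KQ minus KA was 0.01 in females (95% interval -0.79 to 0.82) and -0.51 in males (-1.22 to 0.19), and over both sexes -0.25 (-0.79 to 0.29). Over both sexes it was -0.14 for Psmb9 (-0.77 to 0.49), -0.15 for Psmb10 (-0.48 to 0.17), -0.13 for Psme1 (-0.44 to 0.17) and -0.08 for Psme2 (-0.38 to 0.22). These intervals do not show that the 2 forms act alike.

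Genes that work beside the immunoproteasome were described by lists. Of 12 genes for MHC class I and peptide loading, 12 were called higher in female and 11 in male H2A.Z KO mice, with median log2 fold changes of 2.56 and 3.02, where 18.1% and 17.2% of all genes were called higher. The light chain B2m was higher by 3.21 ± 0.36 in females (edgeR adjusted p = 4.86e-08) and 3.86 ± 0.33 in males (adjusted p = 1.26e-10). The heavy chains H2-K1 (3.62 and 4.60) and H2-D1 (3.56 and 4.30) and the loading factor Tapbp (2.36 and 2.82) rose as well, though the heavy chains are close paralogs among which reads may be divided. Of 17 genes of interferon signalling, 13 were called higher in each sex, among them Irf9 (2.43 and 2.45), Irf7 (4.17 and 5.01) and Stat2 (1.80 and 2.31), with medians of 1.56 and 2.31, again beside 18.1% and 17.2% of all genes.

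Of 30 tested genes for assembly, ubiquitin delivery and regulation of the proteasome, 2 were called higher and 7 lower in females, and 3 higher and 8 lower in males, with medians of -0.105 and -0.0233. Over all genes 18.1% were called higher and 16.5% lower in females, and 17.2% and 14.4% in males. Nfe2l2, a transcription factor of the oxidative stress response, was higher by 2.10 ± 0.24 (edgeR adjusted p = 7.75e-08) and 1.85 ± 0.22 (adjusted p = 3.13e-08). Pomp, the chaperone that matures new cores and was picked after its values were seen, was higher by 0.38 ± 0.11 in males (adjusted p = 0.00905) and at 0.13 ± 0.12 in females (adjusted p = 0.465). The shuttle factor Ubqln4 (-0.58 and -0.56) and the ubiquitin ligase Ube3c (-0.43 and -0.36) fell in both sexes, and Uchl5, a deubiquitinase of the regulatory particle, by 0.49 ± 0.08 in females.

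Markers of other cells also differed between H2A.Z KO and Myc mice. The counts of markers below stand beside 18.1% of all genes called higher and 16.5% lower in females, and 17.2% and 14.4% in males. Microglia markers summed to 445 to 713 CPM in female Myc and 1890 to 3260 CPM in female H2A.Z KO mice, and to 443 to 587 and 1910 to 3770 CPM in males, with 13 of 14 called higher in each sex. T and NK cell markers summed to 3.02 to 6.47 CPM for females with Myc and 26.5 to 160 CPM for females with H2A.Z KO, and to 2.61 to 3.24 and 63.1 to 232 CPM for the males, with 12 of 12 called higher. All 8 B and plasma cell markers were called higher too. Astrocyte markers summed to 4250 to 5090 CPM in Myc and 7090 to 12700 CPM in H2A.Z KO for females, and to 4300 to 4730 and 6570 to 10400 CPM for males, with 6 of 8 called higher in each sex. Of the endothelial markers 7 and 4 of 7, of the oligodendrocyte markers 5 and 3 of 8, and of the choroid plexus markers 8 and 0 of 8 were called higher by edgeR in females and males (0 of 8 in males also at an unadjusted p under 0.05). The choroid plexus sums of the female H2A.Z KO mice were uneven, at 108.4, 3986, 2882 and 60.31 CPM, beside 24.7 to 45 CPM in female Myc. Neuron markers summed to 11400 to 11700 CPM for females with Myc and 4420 to 7990 CPM for females with H2A.Z KO, and to 11300 to 12400 and 5300 to 9080 CPM for the males, with 10 and 8 of 10 called lower.

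In the replacement mice microglia markers summed to 948 to 1810 CPM in females and 795 to 1970 CPM in males, and T and NK cell markers to 8.15 to 19.2 and 6.5 to 32.1 CPM. Both ranges, like Psmb8, lay between those of Myc and H2A.Z KO, except for 1 male. The microglia sum of male H2A.Z.1 KA mouse 5 (1974 CPM) was above that of male H2A.Z KO mouse 42 (1906 CPM). None of the microglia or T and NK cell markers was at 0 in all mice of a group. The H2A.Z KO mice with the highest Psmb8, female mouse 34 and male mouse 21, also had the highest T and NK cell sums (160 and 232 CPM), and male H2A.Z.1 KA mouse 5 was the highest of its group in both (48.6 and 32.1 CPM). The order of the remaining H2A.Z KO mice differed. Male mouse 4 had more Psmb8 than male mice 3 and 42, but a lower T and NK cell sum (63.14 beside 94.76 and 89.06 CPM). Female mouse 14 had slightly more Psmb8 than female mouse 13, but a lower sum (43.95 beside 54.86 CPM). Microglia sums were highest neither in mouse 34 nor in mouse 21, but at 3261 CPM in female mouse 13 and 3771 CPM in male mouse 4. They were 2666 CPM in mouse 34 and 2796 CPM in mouse 21. B and plasma cell sums were 407 and 586 CPM in mice 34 and 21. The highest were 2473 CPM in female mouse 13 and 1160 CPM in male mouse 42. Male KA mouse 5 was the highest of its group in both of these sums too. Ifng, the interferon-gamma gene, picked after its values were seen, had 0 to 1 reads in each Myc mouse and up to 2.51 CPM in female mouse 34 and 7.93 CPM in male mouse 21. The part of these cells in the rise of the inducible genes was not tested.

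**Figure D5:**
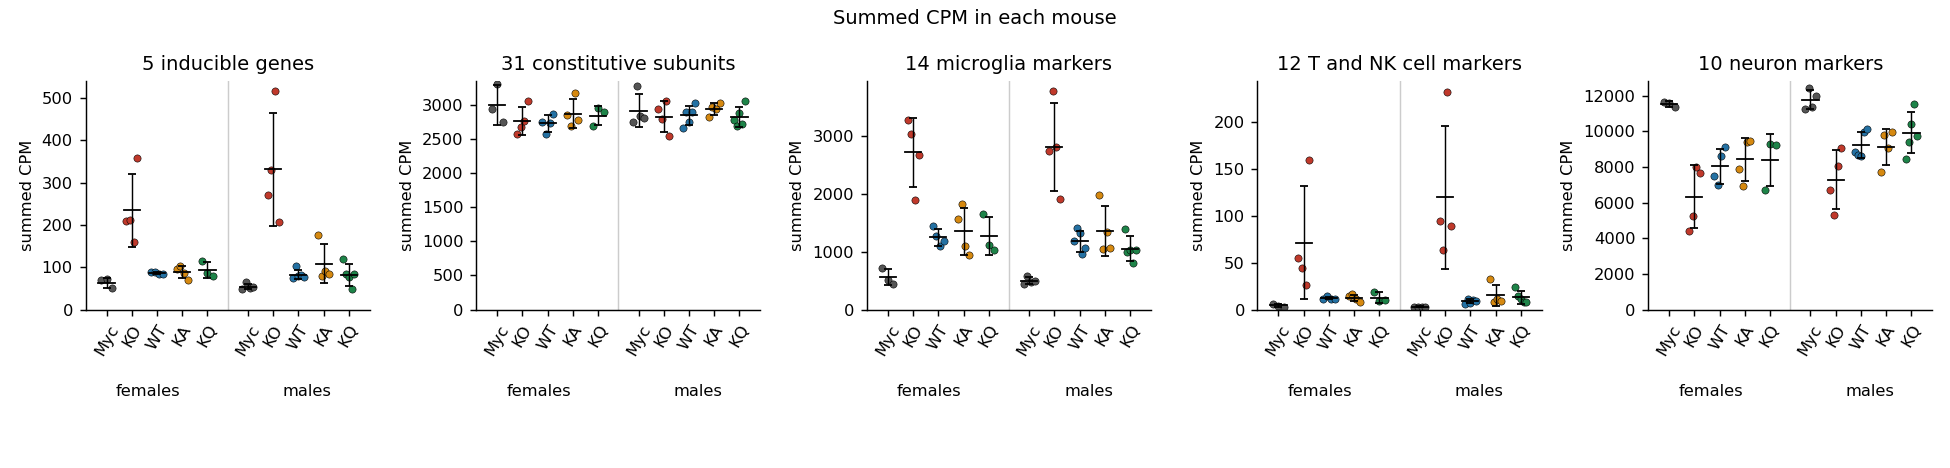
Summed CPM in each mouse by group, for the 5 inducible genes, the 31 constitutive subunits, and markers of microglia (14), T and NK cells (12) and neurons (10), with bars at the mean and SD. By group mean, the inducible, microglia and T and NK cell sums are highest in H2A.Z KO and the neuron sums are lowest there. The neuron sums of some replacement mice lie below those of some H2A.Z KO mice of their sex. The constitutive sums run from 2535 to 3305 CPM over all 40 mice.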

How the data were processed

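Counts from RNA-seq of hippocampus were used, 1 library for each of 40 mice. Per the study's methods the authors used Rsubread to align read pairs to GRCm39, counted them with featureCounts and deposited raw counts per gene and mouse. A second deposited table, of normalized signal (counts divided by DESeq2 size factors), was not used. Submitters' notes name FastQC 0.11.9 and DESeq2 1.38.3.

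Here 28449 of 40853 genes, those with 20 or more counts in all, were tested. They were scaled by TMM and modelled in edgeR 4.0.16 under R 4.3.3 (glmQLFit, robust, glmQLFTest) with a mean for each of 10 groups of sex and virus. P-values were adjusted over all genes tested. The SE was taken as the absolute log2 fold change divided by the square root of the F statistic. The 95% intervals are 1.96 SE on either side, take no account of the degrees of freedom of the F test, and so are somewhat narrow. CPM used TMM-scaled library sizes. The script was tested on simulated data. Copies were sought with blastn 2.17.0 at 95% identity over 100 bases or more, by which 10 of the 31 constitutive subunits had one. Promoters came from RefSeq.

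Members, lists and naming rule were chosen with earlier results of these data known. The rule named every member, up to 4 constitutive subunits per direction and comparison with the smallest p, and up to 4 genes of each other list. Alternatives were DESeq2 1.42.0, its size factors in edgeR, filterByExpr, no filter, no robust estimation, the sample number range as covariate, only the groups compared, leaving out each mouse, and, chosen after seeing the data, leaving out 4 mice above 1000 CPM of the choroid plexus gene Ttr. Paaf1, a listed regulator, was not tested. 1 gene of the lists is not reported here by name.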

Additional observations from a re-analysis of the deposited data

Results flagged for a closer look

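For 10 genes (the inducible genes, their partners, Psme2b and Psme3) in each group of at least 4 mice, the highest and lowest mouse were compared with the rest by Dixon's test. Of 80 sets, 6 passed, and chance alone gives about 1 in 20. Male H2A.Z.1 KA mouse 5 stood above its group for Psmb8 (48.6 CPM, gap 0.856 of the range) and Psme1 (71.0 CPM, 0.925). Male Myc mouse 22 stood above its group for Psme1 (35.8 CPM, 0.924) and Psme3 (108 CPM, 0.857). Male H2A.Z KO mouse 42 stood below its group for Psmb6 (58.9 CPM, 0.94), and female H2A.Z.1 WT mouse 39 for Psme2b (16.8 CPM, 0.875). No difference of the H2A.Z KO response between the sexes was called, the smallest adjusted p over the 10 genes being 0.902 (edgeR), and none had opposite directions in all mice of the sexes.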

How the results depend on the processing

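All 5 inducible genes were called higher in H2A.Z KO than in Myc in both sexes under every alternative and without any single mouse. Over named members, 584 of 615 values under other settings kept direction and side of the threshold, 27 lost the threshold, 1 gained it and 3 changed sign, and without single mice these were 536, 62, 2 and 8 of 608. The sign changes were of Psmb6, which no setting called. Its female value of -0.0151 became 0.000134 with DESeq2 size factors and 0.000129 with DESeq2, and its male value of 0.00455 became -0.0023 with no filter. Without single mice it ran from -0.141 to 0.107 and from -0.0568 to 0.133.

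Constitutive subunits lower in female H2A.Z KO than Myc (2) were 4 with filterByExpr, 0 with no filter, 0 without the 4 mice above 1000 CPM of Ttr, 1 with only the groups compared and 0 to 7 without single mice. Female WT against Myc had 2 inducible genes higher (1 without the Ttr mice, 0 to 2 without single mice) and 1 constitutive subunit lower (2 with filterByExpr, 0 without the Ttr mice, 0 with only the groups compared, 0 to 1 without single mice). Female KA against KO had 0 constitutive subunits higher (1 with filterByExpr, the covariate or DESeq2, 0 to 1 without single mice), and female KA against Myc had 2 inducible genes higher (0 to 2). Female KQ had 5 inducible genes lower than KO (0 with only the groups compared, 2 to 5 without single mice) and 2 higher than Myc (0 without the Ttr mice, 0 with only the groups compared, 0 to 2).

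Males against Myc had 1 constitutive subunit higher in KO (0 to 3 without single mice) and 1 lower (0 with only the groups compared, 0 to 1). Against KO, male WT had 2 lower (1 with only the groups compared, 1 to 4) and male KQ 1 lower (0 with no filter, 0 with only the groups compared, 0 to 4). Male KQ against Myc had 0 lower (0 to 1). The cause of these changes was not tested, save that fitting only the groups compared uses fewer mice. No paired analysis was possible because the sample numbers name single mice and no 2 groups share one.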
